A study of Mus musculus with 6 samples.

Results

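The genes described here encode enzymes of the tricarboxylic acid (TCA) cycle with its malate, aspartate and pyruvate side reactions, and enzymes that break down the branched-chain amino acids leucine, isoleucine and valine. They were chosen by name, with earlier results of these data known. The TCA cycle arm holds 20 genes and the amino acid arm 14, and all 34 were measured, out of 19938 genes with a value. RNA came from heart tissue of C57BL/6J mice, taken at postnatal day 14 after 1 week of ETX or of its vehicle, phosphate-buffered saline (PBS), in groups of 3 hearts each. The labels do not spell out ETX and give neither dose nor sex. They call the hearts biological replicates (PBS replicates 3, 9 and 12, ETX replicates 6, 7 and 10), with 1 Affymetrix whole-transcript array per heart, and 6 arrays limit the precision. The comparison asks which of these transcripts differed between ETX and PBS hearts. The deposited values are log2 signals, so a difference of 1 is a doubling, and all differences below are ETX minus PBS.

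The TCA cycle burns acetyl-CoA in the mitochondrial matrix, and its dehydrogenases pass electrons to the respiratory chain. In heart muscle most of the acetyl-CoA comes from fatty acids, with the rest from pyruvate, ketone bodies and amino acids. The branched-chain amino acids are first transaminated, then committed by the branched-chain ketoacid dehydrogenase, and each carbon skeleton then follows its own route to acetyl-CoA, acetoacetate or succinyl-CoA, the last of which enters the TCA cycle.

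The hearts were checked against marker genes of the tissue. Cardiomyocyte markers were bright in all 6 hearts, and their mean log2 level lay between 11.57 and 11.61 in PBS and between 11.51 and 11.63 in ETX. Of these 11 markers 9 lay below 0, with a median difference of -0.066. Lung epithelium markers (8 of 10 tested, 8 of 8 below 0) had a mean of 6.26 in PBS replicate 3, 7.61 in PBS replicate 9 and 3.71 in PBS replicate 12, against 3.77 to 3.86 in ETX. The mean of 6 atrial markers was high in PBS replicate 3, ETX replicate 6 and ETX replicate 7 (7.52 to 8.26) and between 5.58 and 6.13 in the others. Single markers departed from this mean. Bmp10 was high in PBS replicate 3 alone (7.71), with 2.79 and 2.94 in ETX replicates 6 and 7. Nppa was high in ETX replicate 10 as well (11.89), against 9.28 and 9.04 in PBS replicates 9 and 12. Endothelial markers (8 of 8 below 0, 4 called) and macrophage markers (9 of 9 below 0, 5 called) were lower in ETX. Of 8 fibroblast markers 7 lay below 0 and 1 was called lower, and of 3 tested erythroid markers 2 were called higher. Of 5 tested adipocyte markers and of 5 tested skeletal muscle markers 4 each lay above 0, and 0 were called. The adipocyte mean was 4.89 in ETX replicate 6 and 4.32 to 4.47 in the other hearts. The brown fat marker Ucp1 was at 5.72 in ETX replicate 6, against 3.57 to 3.77 in the others. Among all genes tested 2.43% were called lower and 1.14% higher. The endothelial and macrophage means were 9.09 to 9.12 in PBS against 8.63 to 8.79 in ETX, and 7.22 to 7.46 against 6.71 to 6.79. Xist was high in PBS replicate 3 and ETX replicates 6 and 10 (8.34 to 8.41). The Y-linked genes Eif2s3y (7.05 to 7.48) and Kdm5d (4.84 to 5.17) were high in PBS replicates 9 and 12 and ETX replicate 7. By these transcripts the sexes were not balanced between the groups. The part of these differences in the results below was not tested beyond the fits named there, and in whole tissue fewer cells of a type and less RNA per cell cannot be told apart.

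In the TCA cycle arm 1 of 20 transcripts fell and 0 rose. The one that fell was Fh1, the fumarase that hydrates fumarate to malate. Among all 14953 genes tested, 3.56% were called by limma at an adjusted p of 0.05, 2.43% lower and 1.14% higher, so 1 call among 20 genes is close to the background. At an unadjusted p under 0.05 stood 3 of the 20, all lower (Fh1, Idh3g and Sdhc), against 21.9% of all genes. The differences were small and mostly on one side: 17 of 20 lay below 0, with a median of -0.069 and a range of -0.30 to 0.093, whereas 51.6% of all genes lay below 0, with a median of -0.0063. The groups did not overlap for 7 members that were lower in ETX and 2 that were higher, against 16.1% and 11.6% of all genes (45% of members against 27.7% in either direction). Among other genes with a mean of 10 or above, where most of this arm lies, the shares were 25.5% lower and 12.9% higher. Centring the arrays on their medians moved all genes down alike, to a median of -0.036, and put 18 of 20 members below 0. A further quantile normalization put 12 of 20 there and moved the median of the arm to -0.029, with 0.00062 for all genes. Without ETX replicate 7 the median of the arm was -0.036.

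In the branched-chain amino acid arm 0 of 14 transcripts passed in limma, against 3.56% of all genes. At an unadjusted p under 0.05 stood 5 of 14 (35.7%), against 21.9% of all genes. Of these 5, Ivd, Acadsb, Bckdha and Dbt were lower in ETX and Hibch was higher. Below 0 lay 10 of 14 (71.4%, against 51.6% of all genes), with a median of -0.067 and a range of -0.44 to 0.36. After centring the arrays, with the same shift of all genes, 11 lay below 0, and after a further quantile normalization 8, with a median of the arm of -0.026. The groups did not overlap for 4 lower members and 1 higher member, 35.7% in either direction against 27.7% of all genes. Among other genes with a mean of 7 to 9, where most of this arm lies, the shares were 27.5% lower and 13.0% higher. The median of this arm was -0.025 without PBS replicate 3, -0.12 without PBS replicate 9 and -0.10 without ETX replicate 6.

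**Figure D1:**
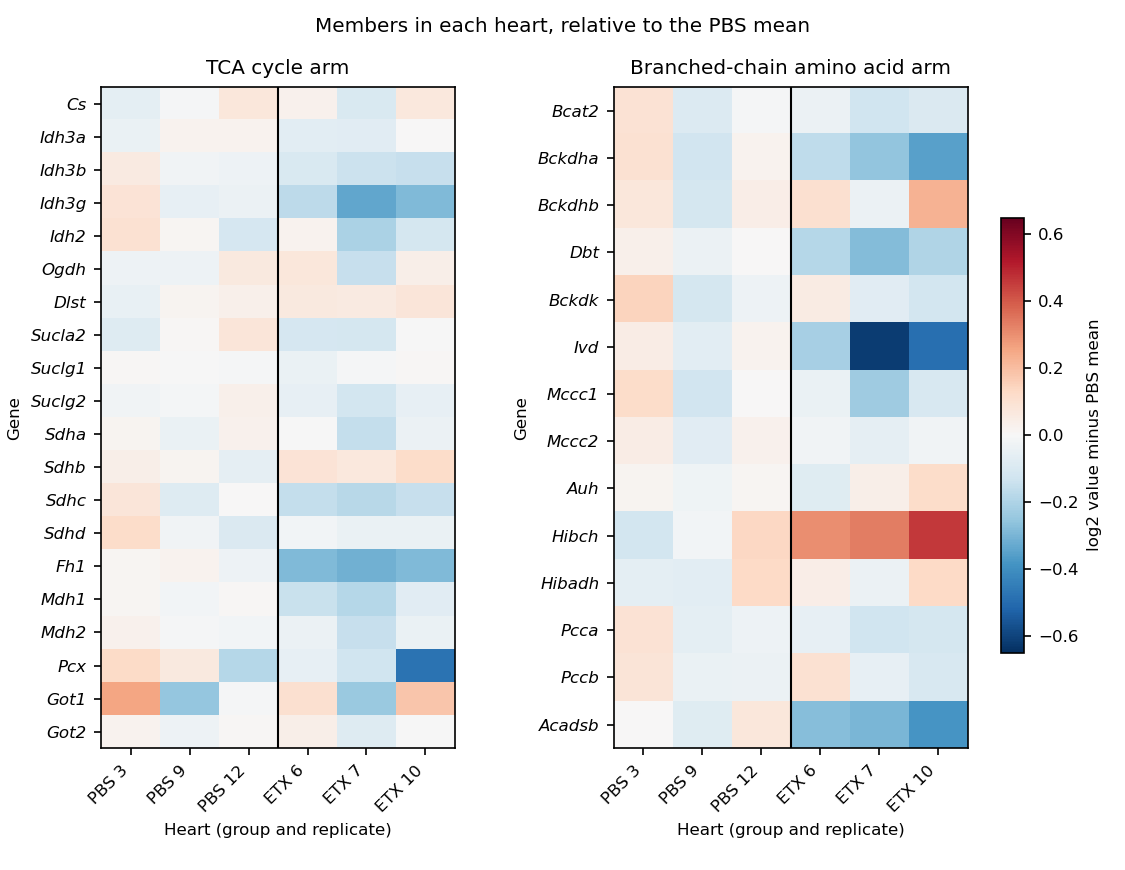
Colour gives the log2 value of each member (rows) in each heart (columns) minus the mean of the 3 PBS hearts, for the TCA cycle arm on the left and the branched-chain amino acid arm on the right. Fh1, Acadsb and Ivd are blue in all 3 ETX hearts and Hibch is red in all 3, while Suclg1 stays near white throughout.

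Fh1 was at 10.81, 10.82 and 10.76 in PBS replicates 3, 9 and 12 and at 10.51, 10.48 and 10.51 in ETX replicates 6, 7 and 10. The hearts of each group lay close together, and every ETX heart lay below every PBS heart. The means were 10.79 ± 0.029 and 10.50 ± 0.015 (SD, n = 3 per group), a 1.23-fold lower signal in ETX with a log2 difference of -0.30 (95% interval -0.43 to -0.16, limma adjusted p = 0.0411). The size was steady while the call was not. With each heart left out in turn the difference ran from -0.31 to -0.29, and the limma adjusted p from 0.0795 without PBS replicate 12 to 0.143 without ETX replicate 7, so the call was lost in all 6 fits. Adding the mean of the lung markers as a covariate, the difference was -0.27 (limma adjusted p = 0.185). Against PBS replicate 12 alone it was -0.26, given as a value with no test.

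The 300-base promoter of Fh1 is shown because Fh1 is the called member, and that of Sdhd because it is the one member promoter with a match to either of the searched motifs. Sequences are from RefSeq on GRCm38.p6 and reach past the annotated gene start, for Fh1 at chr1:175625586-175625885 on the minus strand and for Sdhd at chr9:50603800-50604099 on the minus strand. Capitals mark the extended half-site TCAAGGTCA known for oestrogen-related receptors, here as its reverse complement, beginning 36 bases after the annotated start.

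Fh1: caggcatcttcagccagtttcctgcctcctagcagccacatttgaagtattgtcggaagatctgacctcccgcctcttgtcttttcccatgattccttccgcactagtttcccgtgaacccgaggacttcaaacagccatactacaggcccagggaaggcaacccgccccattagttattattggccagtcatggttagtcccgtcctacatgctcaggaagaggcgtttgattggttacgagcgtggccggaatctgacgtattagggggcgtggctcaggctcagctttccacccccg
Sdhd: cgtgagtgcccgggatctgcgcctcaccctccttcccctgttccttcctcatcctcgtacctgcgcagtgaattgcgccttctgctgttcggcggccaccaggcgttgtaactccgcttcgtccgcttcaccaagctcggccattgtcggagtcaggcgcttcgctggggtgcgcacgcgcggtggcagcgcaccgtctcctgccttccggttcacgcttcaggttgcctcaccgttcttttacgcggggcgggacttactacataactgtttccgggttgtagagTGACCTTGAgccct

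Promoters were found for 18 of the 20 TCA cycle genes and 13 of the 14 amino acid genes. The half-site TCAAGGTCA stood on either strand in 1 of the 18 and 0 of the 13, and in 0.466% of all 27025 genes with a promoter. The palindromic core of the NRF1 site was in 0 member promoters and in 1.07% of all genes. A match is a description of letters in this window only. Sdhd itself differed by -0.036 (limma adjusted p = 0.821).

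Citrate synthase, Cs, which condenses acetyl-CoA with oxaloacetate at the entry of the cycle, stood at 11.09 ± 0.069 in PBS and 11.09 ± 0.086 in ETX. Its difference of -0.0017 had a 95% interval of -0.17 to 0.17, so a change of more than about that size in either direction lay outside the interval. The isocitrate dehydrogenases come next. The NAD-dependent enzyme is built of a catalytic subunit, Idh3a, and the regulatory subunits Idh3b and Idh3g. Idh3g was at 11.80, 11.66 and 11.67 in PBS and at 11.54, 11.37 and 11.42 in ETX. The groups did not overlap, and the difference of -0.26 (95% interval -0.44 to -0.091) did not pass (limma adjusted p = 0.0961). Idh3b differed by -0.13 without overlap (0.281) and Idh3a by -0.045 with overlap (0.725). The mitochondrial NADP-dependent Idh2 differed by -0.098 (0.555).

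The 3 subunits of the NAD-dependent enzyme were compared within each heart, as log2 signal ratios, in a set of 17 subunit pairs from 6 complexes. The Idh3a to Idh3g log2 ratio was -0.90, -0.69 and -0.71 in PBS and -0.66, -0.50 and -0.47 in ETX, and all ETX hearts lay above all PBS hearts. This shift of 0.22 had a two-sided exact permutation p of 0.1 (Benjamini-Hochberg adjusted p = 0.212 over the 17 pairs). An exact p of 0.1 is the smallest that a permutation test of 3 against 3 hearts allows. It was shared by all 8 of the 17 pairs whose groups did not overlap, with the same adjusted p. No share without overlap was taken over other gene pairs, so the count of 8 has no background. For single genes that share was 27.7%. This smallest p lies above the threshold used for calls, so the test could not call any pair. The pairs of a complex share genes and are not independent, and a ratio does not say which of its genes differs.

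The oxoglutarate dehydrogenase genes lay near 0. Ogdh, its first component, differed by -0.012 (95% interval -0.19 to 0.17), and Dlst, the succinyl-transferring core, by 0.066 (-0.075 to 0.21, no overlap, limma adjusted p = 0.578). Succinyl-CoA synthetase, the step at which carbon from valine and isoleucine also joins the cycle, has the shared subunit Suclg1 and either Sucla2 (ADP-forming) or Suclg2 (GDP-forming). Their differences were -0.016, -0.074 and -0.075 in that order, and Suclg2 was lower in every ETX heart than in any PBS heart (limma adjusted p = 0.526). A further cluster of Suclg2 differed by -0.094. The Sucla2 to Suclg2 log2 ratio shifted by 0.0011 between the groups, from 2.60 ± 0.057 to 2.60 ± 0.054 (SD, n = 3, exact permutation p = 1, two-sided).

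Succinate dehydrogenase is both a TCA cycle enzyme and complex II of the respiratory chain. Its membrane anchor Sdhc was at 11.21, 11.05 and 11.13 in PBS and at 10.98, 10.95 and 10.98 in ETX. Every ETX heart lay below every PBS heart, with a difference of -0.16 (95% interval -0.32 to -0.0064, limma adjusted p = 0.213). The iron-sulfur subunit Sdhb went the other way in its values, with 10.96, 10.94 and 10.86 in PBS and 11.01, 10.99 and 11.04 in ETX, a difference of 0.093 (limma adjusted p = 0.436). The flavoprotein subunit Sdha differed by -0.064 and the other anchor Sdhd by -0.036, and both overlapped. The Sdhb to Sdhc log2 ratio was -0.25, -0.11 and -0.27 in PBS and 0.036, 0.041 and 0.063 in ETX. It had the largest shift of the 6 pairs in this complex (0.25), again at the smallest exact permutation p (0.1, two-sided, adjusted p = 0.212).

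After fumarase, malate dehydrogenase returns malate to oxaloacetate in the matrix (Mdh2) and in the cytosol (Mdh1). Mdh1 was at 12.02, 11.99 and 12.01 in PBS and at 11.86, 11.82 and 11.93 in ETX. The groups did not overlap, and the difference of -0.13 did not pass (95% interval -0.28 to 0.011, limma adjusted p = 0.263). Mdh2 differed by -0.077, also without overlap (0.536). The aspartate aminotransferases Got1 (cytosol) and Got2 (mitochondria) complete the malate-aspartate shuttle, which carries reducing equivalents into the matrix. Got1 had the widest interval of the TCA cycle members. It ran from 10.61 to 11.12 in PBS and from 10.63 to 11.04 in ETX, and differed by 0.014 (95% interval -0.33 to 0.36). Got2 differed by -0.017 (-0.17 to 0.13), and its other cluster by -0.020. Pyruvate carboxylase, Pcx, which refills oxaloacetate from pyruvate, was dim: its mean of 4.30 over all hearts lay not far above the level of 3.45 under which genes were left out. It was at 4.53, 4.47 and 4.22 in PBS and at 4.35, 4.28 and 3.93 in ETX, overlapping, with a difference of -0.22 (limma adjusted p = 0.361). Without ETX replicate 10 it was -0.091, with the lung marker mean as a covariate -0.080, and against PBS replicate 12 alone -0.034.

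**Figure D2:**
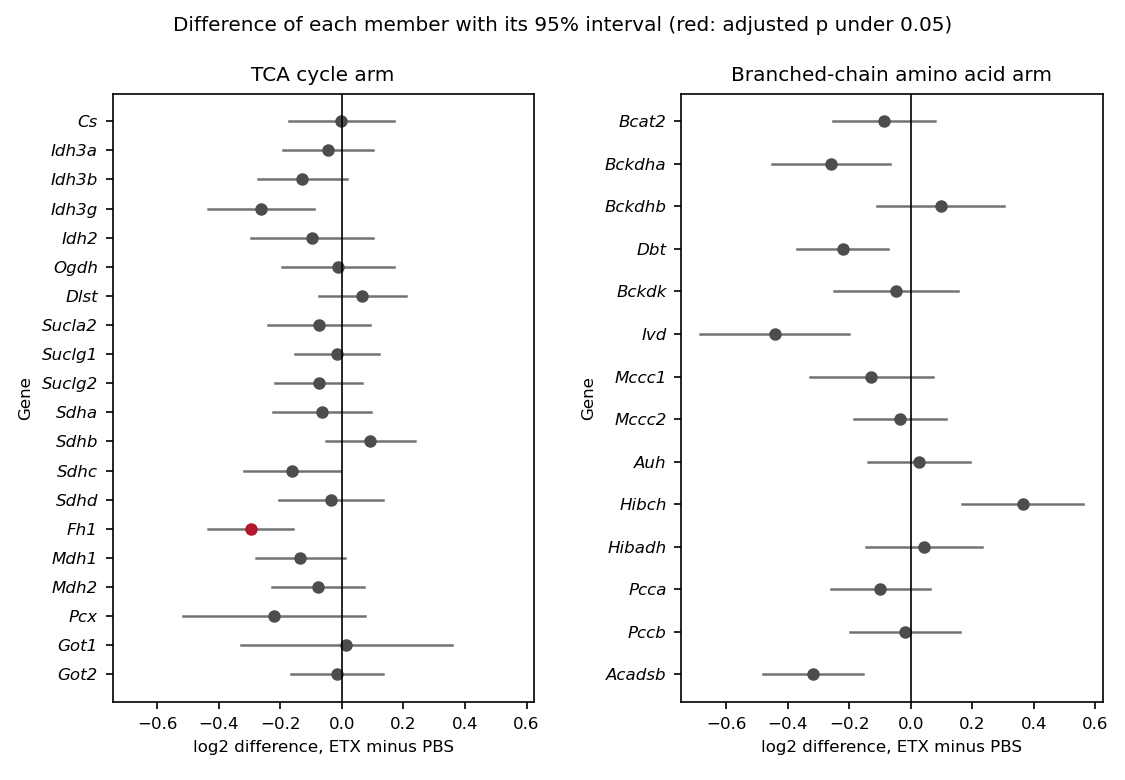
Points give the log2 difference, ETX minus PBS, of each member, and lines its 95% interval from limma; red marks an adjusted p under 0.05. Fh1 at -0.30 is the one red point, and the widest intervals belong to Got1 and Pcx in the TCA cycle arm and Ivd in the amino acid arm.

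In the amino acid arm the first step, shared by all 3 amino acids, is the mitochondrial transaminase Bcat2, which differed by -0.087 (95% interval -0.25 to 0.078). The committed step is the branched-chain ketoacid dehydrogenase, with the E1 subunits Bckdha and Bckdhb and the E2 core Dbt. Bckdha was at 7.91, 7.69 and 7.83 in PBS and at 7.64, 7.55 and 7.46 in ETX, and Dbt at 7.86, 7.79 and 7.83 against 7.64, 7.54 and 7.63. Neither gene overlapped between groups. Bckdha differed by -0.26 (95% interval -0.45 to -0.066, limma adjusted p = 0.127) and Dbt by -0.22 (-0.37 to -0.073, 0.101). Bckdhb, the partner of Bckdha in the E1 heterotetramer, overlapped and differed by 0.098 (0.574).

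Within the complex the Bckdha to Bckdhb log2 ratio was 1.49, 1.46 and 1.45 in PBS and 1.19, 1.24 and 0.88 in ETX. All 3 ETX hearts lay below the PBS hearts, with ETX replicate 10 lowest, and the shift of -0.36 was the largest of all 17 subunit pairs (exact permutation p = 0.1, two-sided, adjusted p = 0.212). The Bckdhb to Dbt ratio shifted by 0.32, also without overlap, and the Bckdha to Dbt ratio by -0.037 with overlap (exact permutation p = 0.6). The kinase Bckdk, which switches the complex off, differed by -0.047 (95% interval -0.25 to 0.15).

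The acyl-CoA dehydrogenases of the leucine and isoleucine routes held the 2 largest negative differences of this arm. Ivd, isovaleryl-CoA dehydrogenase of the leucine route, was at 8.61, 8.50 and 8.59 in PBS and at 8.35, 7.95 and 8.08 in ETX. The ETX hearts spread more widely than the PBS hearts but lay below all of them. The means were 8.57 ± 0.061 and 8.13 ± 0.21 (SD, n = 3), a difference of -0.44 or 1.36-fold (95% interval -0.68 to -0.20), which did not pass (limma adjusted p = 0.0609). Without ETX replicate 6, the ETX heart nearest to PBS, it was -0.55 and passed (limma adjusted p = 0.0399). With the lung marker score as a covariate, and in the other fits with 1 heart left out, it did not pass.

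Acadsb, the short branched-chain dehydrogenase of the isoleucine route, was at 7.74, 7.66 and 7.81 in PBS and at 7.46, 7.44 and 7.35 in ETX. Again all ETX hearts lay below all PBS hearts. It differed by -0.32 or 1.25-fold (95% interval -0.48 to -0.16) and just missed the threshold (limma adjusted p = 0.0517). Its counterpart in the valine route, Acad8, is not among the 34 genes and differed by -0.070 (0.708).

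Further down the leucine route the differences were small. The biotin-dependent methylcrotonyl-CoA carboxylase subunits Mccc1 and Mccc2 differed by -0.13 and -0.033, and the hydratase Auh by 0.026. All 3 overlapped between groups, with limma adjusted p between 0.434 and 0.868.

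In the valine route Hibch, which releases free 3-hydroxyisobutyrate from its CoA ester, had the largest positive difference of all 34 genes. It was at 7.29, 7.39 and 7.54 in PBS and at 7.71, 7.74 and 7.87 in ETX. All ETX hearts lay above all PBS hearts, with means of 7.41 ± 0.13 and 7.77 ± 0.084 (SD, n = 3) and a difference of 0.36 or 1.29-fold (95% interval 0.17 to 0.56, limma adjusted p = 0.0591). PBS replicate 12, the PBS heart with the lowest lung marker mean, was the highest PBS heart, and against it alone the difference was 0.23, given as a value with no test. The next enzyme, the dehydrogenase Hibadh, differed by 0.044 (95% interval -0.14 to 0.23) and overlapped.

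Propionyl-CoA carboxylase takes the propionyl-CoA from isoleucine and valine towards succinyl-CoA. Its subunits Pcca and Pccb differed by -0.099 and -0.019 and overlapped (limma adjusted p = 0.455 and 0.918).

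**Figure D3:**
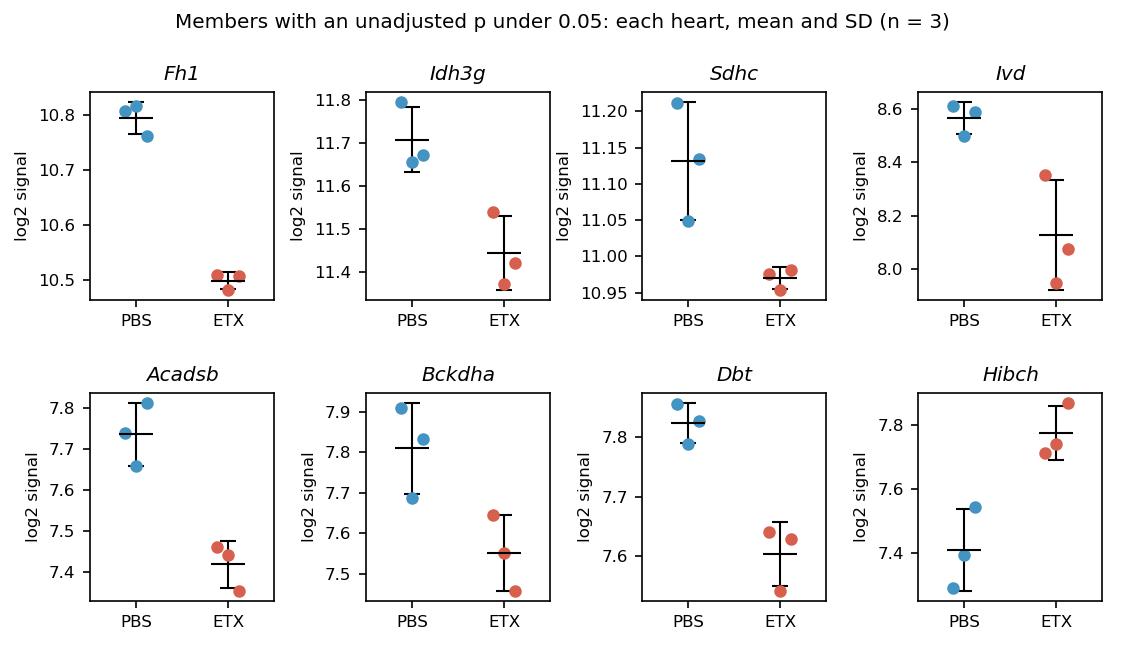
Dots give the log2 signal of each heart for the 8 members with an unadjusted p under 0.05, with the mean and SD of 3 hearts per group as bars; each panel has its own axis that does not start at 0. PBS and ETX hearts separate in every panel, with the ETX hearts lower except for Hibch.

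The threshold fell just beside 3 of these genes. Acadsb, Hibch and Ivd had limma adjusted p of 0.0517, 0.0591 and 0.0609, and each passed when genes under the median level were left out of the test (0.0271, 0.0329 and 0.0346), where fewer genes are tested, and with a variance trend (0.0287, 0.0346 and 0.0363). With the sex marker Xist, the lung score or the atrial score as a covariate no member of either arm passed. The covariates take a degree of freedom. The differences of Fh1 (-0.33 to -0.26), Acadsb (-0.40 to -0.28), Ivd (-0.55 to -0.35) and Hibch (0.23 to 0.43) kept their sign in the alternative fits; those that change only the variance estimate, the clusters or the genes tested leave these differences as they are.

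The members were set beside other genes of similar level. Among 325 other genes with a mean log2 value of 10 or above, the range of 17 members, 60.9% lay below 0 with a median of -0.037. Without overlap 25.5% were lower in ETX and 12.9% higher, and 1.85% were called lower. Among 3214 other genes with a mean between 7 and 9, the range of 12 members, 60.6% lay below 0 with a median of -0.043. Here 27.5% were lower and 13.0% higher without overlap, and 4.51% were called lower. These level ranges were chosen after the values were seen.

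**Figure D4:**
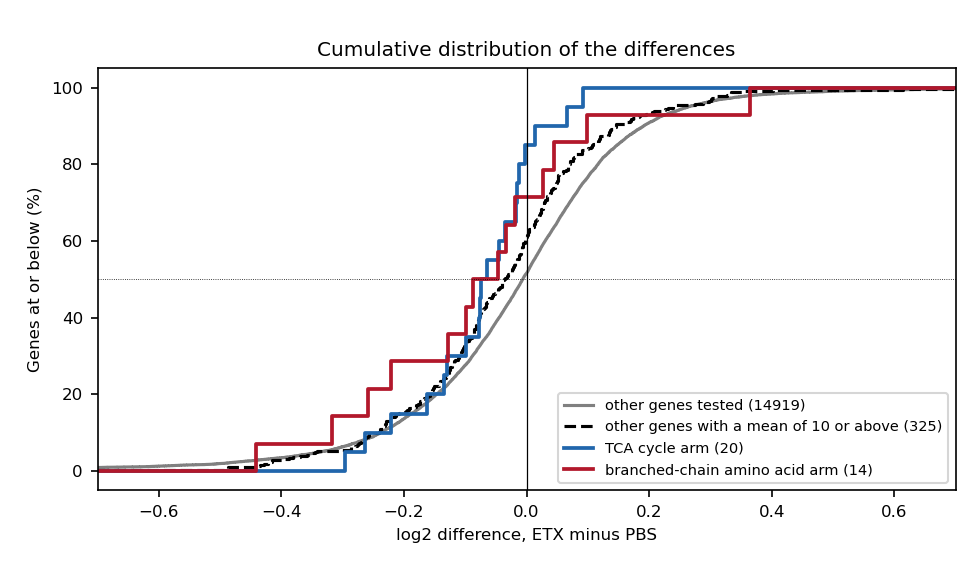
Curves give the percentage of genes (vertical) at or below each log2 difference, ETX minus PBS (horizontal), for the 2 arms, for the other genes tested and for the 325 other genes with a mean of 10 or above. The curve of the TCA cycle arm reaches 85% at 0, against 51.6% for the other genes tested and 60.9% for the bright ones.

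Of 33 further genes of pyruvate entry, the TCA cycle and its carriers, 30 were tested, and 3 rose and 1 fell, with a median of 0.024. Among all genes tested 1.14% rose and 2.43% fell. Pdk1 and Pdk3, kinases that inhibit pyruvate dehydrogenase, rose 1.30-fold (limma adjusted p = 0.0256) and 1.58-fold (0.00977). Pdk3 went from 5.31 ± 0.13 to 5.97 ± 0.044 (SD, n = 3) and passed in all 6 fits without 1 heart. The dicarboxylate carrier Slc25a10, which exchanges malate or succinate for phosphate, rose 1.36-fold (limma adjusted p = 0.016). The mitochondrial malic enzyme Me3, which turns malate into pyruvate, stood at 8.78 ± 0.0086 in PBS and 8.34 ± 0.11 in ETX, a 1.36-fold fall (limma adjusted p = 0.0271). Its paralogue Me2 differed by 0.33 (limma adjusted p = 0.0567), the pyruvate carrier subunit Mpc1 by 0.29 (0.0832), the aspartate-glutamate carrier Slc25a13 by 0.31 (0.0914) and the pyruvate dehydrogenase subunit Pdhx by 0.26 (0.0915). Slc25a10 lost its call without PBS replicate 3, ETX replicate 7 or ETX replicate 10 (up to 0.0749), and Pdk1 and Me3 lost theirs in all 6 fits (up to 0.0926 and 0.0888). Dld, the E3 subunit shared by the pyruvate, oxoglutarate and branched-chain ketoacid dehydrogenases, differed by 0.050 (limma adjusted p = 0.757).

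Of 20 further genes of branched-chain amino acid transport and breakdown 19 were tested. Among them 1 rose and 0 fell (1.14% and 2.43% of all genes), with a median of -0.085. Below 0 lay 14 (73.7%, against 51.6% of all genes). The riser was Mmab, which makes the cobalamin cofactor of methylmalonyl-CoA mutase (1.29-fold, limma adjusted p = 0.0314), and it lost the call in each of the 6 fits without 1 heart (up to 0.0913). The phosphatase Ppm1k, which switches the ketoacid dehydrogenase on, differed by -0.28 without overlap (limma adjusted p = 0.124), and the cytosolic transaminase Bcat1 by -0.030 (0.863). The valine enzyme Aldh6a1, which acts after Hibadh, differed by -0.24 (0.153), and Echs1, the hydratase before Hibch, by -0.26 (0.0948), both without overlap. Acat1, which ends the isoleucine route, differed by -0.18 (0.193), and the amino acid transporter Slc7a5 by 0.31 (0.133).

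Among 10 regulators of these pathways 1 rose, against 1.14% of all genes. It was the oestrogen-related receptor Esrrb (4.90 ± 0.065 in PBS, 5.37 ± 0.076 in ETX, limma adjusted p = 0.021). The call held without PBS replicate 9 or ETX replicate 10 and was lost in the other 4 such fits (up to 0.0749). With the lung marker mean as a covariate none of Pdk1, Pdk3, Slc25a10, Me3, Mmab and Esrrb passed (limma adjusted p between 0.0621 for Slc25a10 and 0.152 for Mmab). Its relatives Esrra and Esrrg differed by 0.17 (0.204) and -0.13 (0.366). Klf15, a transcription factor known to activate branched-chain amino acid breakdown, was at 6.84, 6.64 and 6.82 in PBS and at 6.70, 6.45 and 6.44 in ETX. ETX replicate 6 overlapped with PBS, and the difference of -0.24 did not pass (95% interval -0.46 to -0.020, limma adjusted p = 0.196). The coactivator Ppargc1a differed by -0.23 (0.306). Of 19 tested genes of mitochondrial import, chaperones and outer membrane, 14 lay above 0, with a median of 0.049 and 0 called. An unadjusted p under 0.05 in limma was found for 2 of the 19, Tomm40 and Lonp1, both higher. This share of 10.5% was below the 21.9% of all genes.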

How the data were processed

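Total RNA of 6 hearts was hybridised to 1 array each. The log2 values were deposited by the authors, who used Affymetrix Expression Console and RMA per the submitters' processing notes; no version is given there. RMA corrects background, normalizes quantiles and summarises probes by median polish. In RMA values differences of dim transcripts can be compressed. The platform annotation gave 21789 of 35556 clusters exactly 1 gene symbol. For genes with several such clusters (3 members) the brightest over all arrays was used. Genes whose mean lay under the lower quartile (3.45) were left out, which kept 14953 genes and all 34 members.

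Groups were compared with limma 3.58.1 (lmFit, eBayes, two-sided) in R 4.3.3, adjusted by Benjamini-Hochberg over all genes tested, at 0.05. The code was tested on simulated data. Members and lists were chosen with earlier results of these data known, so lists are described by counts and medians, without a test. Every member is given, and of other lists the called genes, up to 4 with the smallest p and a few fixed ones; further genes were chosen after their values were seen. The within-complex ratios were added after seeing the data. Marker scores are means of log2 values. No detection calls were used. Figures used matplotlib 3.10.9.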

Additional observations from a re-analysis of the deposited data

How the results depend on the processing

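No paired analysis was possible because the groups share no replicate number. Over all genes 533 were called, and 392 to 638 with no filter, arrays centred on their median, quantile normalization, mean of clusters, robust moderation or array weights. The count was 870 with a variance trend, 909 without genes under the median, 337 over all transcript clusters, 120 with Xist, 141 with the atrial score and 69 with the lung score as a covariate, 19 without both PBS hearts with lung transcripts, 0 with no moderation, and 94 (without ETX replicate 7) to 241 (without PBS replicate 9) without 1 heart. The share of calls on the lower side was 68.1%, against 78.6% with centred arrays, 58.3% with quantile normalization and 44.5% over all transcript clusters. The number of TCA cycle members called lower, 1 as reported, was 2 with a variance trend (Idh3g added, adjusted p = 0.0468) and 0 with no filter, quantile normalization, all clusters, no moderation, any covariate, or without both of those PBS hearts, and 0 without any 1 heart. Amino acid members called lower were 2 with centred arrays, a variance trend, robust moderation or without genes under the median, 1 with array weights, and 0 to 1 without 1 heart; 1 (Hibch) was called higher with quantile normalization, a variance trend, robust moderation or without genes under the median. With quantile normalization the median of the TCA cycle arm was -0.029 and that of the amino acid arm -0.026; the latter was -0.10 with the atrial score and -0.11 with Xist as a covariate. The fit without both PBS hearts with lung transcripts has 1 PBS heart, assumed to vary like the ETX hearts, so its counts say nothing about stability.

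Signs turned only for members whose difference was within 0.1 of 0 as reported, none of them called in any fit. With quantile normalization the differences were 0.037 for Got2, 0.012 for Mccc2, 0.018 for Ogdh, 0.015 for Pccb, 0.00062 for Sdha, 0.0019 for Sdhd and 0.013 for Suclg1. With centred arrays they were -0.0028 for Auh and -0.015 for Got1, and Got1 was at -0.036 with array weights and -0.11 with Xist. With the atrial score they were 0.025 for Cs, -0.028 for Got1 and 0.0048 for Ogdh, and with the lung score -0.068 for Got1, -0.065 for Hibadh and 0.019 for Sdhd. Without both PBS hearts with lung transcripts they were -0.087 for Hibadh, 0.012 for Idh2, 0.019 for Pccb and 0.059 for Sdhd. Without 1 heart Auh ran from -0.020 to 0.079, Bckdk from -0.10 to 0.027, Cs from -0.036 to 0.047, Got1 from -0.11 to 0.14, Got2 from -0.044 to 0.017, Ogdh from -0.054 to 0.056, Pccb from -0.077 to 0.023 and Sdhd from -0.083 to 0.023. Beyond what the construction of an alternative shows (fewer genes or hearts), the cause was not tested.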
